A study of Mus musculus with 64 samples.

Results

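Pou5f1, Nanog, Sall4, Utf1 and Lin28a are 5 genes of the core pluripotency programme, chosen by name, of 21938 protein-coding genes in the annotation. Binding at these genes was taken from 60 ChIP-seq peak lists as every peak whose summit lay in the gene body or within 20 kb on either side. Across all lists 2638 of 12175735 deposited peaks met this rule, and 689 of them were among the 20000 strongest peaks of their list by the deposited fold, which is the enrichment over local background at the summit. These strongest peaks fell on 40 described sites, of 49040 in the genome. A site was a window of 250 bp on either side of the strongest summit found there, and it was described where at least 2 of 3 libraries of one protein in one condition had a peak among their 20000 strongest. Pou5f1 held 8 such sites, Nanog 8, Sall4 11, Utf1 3 and Lin28a 10.

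The study asked how the level of SOX2 alters where the effectors of WNT signalling bind. Libraries were made in biological triplicate for SOX2, β-catenin, LEF1, TCF7L1 (labelled TCF3) and TCF7L2 (labelled TCF4) in 4 conditions, giving 20 groups of 3. Naive embryonic stem cells (naive ESC) and caudal epiblast-like cells (CEpiLC) came from the XY HM1 TetON mouse line, which served as wild type. SOX2-ON and SOX2-OFF cells came from the SOX2-TetON line, a picked clone of that line whose own Sox2 was ablated and which carried a doxycycline-driven Sox2 cDNA in the Hprt locus. Naive ESC were kept in 2i, a medium that inhibits MEK and GSK3. CEpiLC, SOX2-ON and SOX2-OFF cells were all differentiated over 72 h with FGF and LGK974, a blocker of WNT secretion, to which CHIR99021, which inhibits GSK3 and so activates WNT signalling, was added for the last stretch. Doxycycline was held at 1 µg/ml in SOX2-ON and withdrawn in SOX2-OFF. Naive ESC and SOX2-ON were the high-SOX2 condition of each line by design, CEpiLC and SOX2-OFF the low-SOX2 condition. Both comparisons within a line were between cultures, so fewer bound cells and weaker binding per cell cannot be told apart. Peak lists hold no expression values, so the labelled cell types were not checked against marker expression here.

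Pluripotent cells are held by a small circuit of transcription factors that bind their own genes. Pou5f1 encodes OCT4, which pairs with SOX2 on a composite DNA element, and Nanog encodes a homeodomain protein of the naive state. Sall4 encodes a zinc finger factor that works with OCT4, Utf1 encodes a chromatin-associated protein of undifferentiated cells, and Lin28a encodes an RNA-binding protein that blocks maturation of let-7 microRNAs. In WNT signalling, stabilised β-catenin reaches DNA through LEF1 and TCF proteins. TCF7L1 acts mainly as a repressor in embryonic stem cells, and its repression of pluripotency genes is relieved by β-catenin. On leaving the naive state, cells lose NANOG before OCT4.

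Sites bound by several proteins across the 4 conditions are shown first by their sequence. A composite OCT-SOX element (CATTGT or CTTTGT, then any base, then ATGC, on either strand, within 100 bp of the summit) was present at 3 of the 40 sites, 7.50%, against 558 of 49040 sites in the genome, 1.14%. The 3 sites lay upstream of Pou5f1, upstream of Nanog and downstream of Utf1, and were intergenic in the annotation. Distances here and below run from the annotated start of the gene to the summit. The element is in capitals and reads on the reverse strand in each case. Sequences are the GRCm38 plus strand from the reference, which comes from another mouse strain than the cells.
Pou5f1, 2.0 kb upstream, chr17:35503974-35504124: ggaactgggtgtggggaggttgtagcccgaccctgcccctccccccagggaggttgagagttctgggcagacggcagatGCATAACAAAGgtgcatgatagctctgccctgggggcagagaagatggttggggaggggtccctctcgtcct
Nanog, 52 bp upstream, chr6:122707339-122707488: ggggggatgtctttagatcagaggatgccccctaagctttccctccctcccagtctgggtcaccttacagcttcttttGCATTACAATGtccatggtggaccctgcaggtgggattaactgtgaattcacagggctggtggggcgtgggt
Utf1, 1.9 kb downstream, chr7:139945620-139945770: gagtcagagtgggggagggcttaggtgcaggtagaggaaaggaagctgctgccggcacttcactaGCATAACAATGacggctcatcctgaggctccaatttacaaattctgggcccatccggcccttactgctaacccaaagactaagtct

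The matched elements were CTTTGTTATGC at Pou5f1, CATTGTAATGC at Nanog and CATTGTTATGC at Utf1. Counted along the plus strand, their centres lay at 9.0 bp, -15.0 bp and -5.0 bp from the strongest summit. Each element contains a SOX word, and at Nanog the octamer word TTTTGCAT overlapped it.

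The other sites on which the results turn are shown with SOX words (CATTGT or CTTTGT) and TCF words (CTTTGAA or CTTTGAT) in capitals. The site next to Lin28a held one of each, that upstream of Sall4 by 12.3 kb held a TCF word and no SOX word, and the others held SOX words alone. The site 48 bp upstream of Lin28a lies in an intron of the overlapping noncoding gene Gm13061. Lin28a is on the minus strand, so its printed sequence begins next to the annotated start, whereas that of Nanog ends there. The remaining sites were intergenic.
Pou5f1, 0.9 kb upstream, chr17:35505040-35505190: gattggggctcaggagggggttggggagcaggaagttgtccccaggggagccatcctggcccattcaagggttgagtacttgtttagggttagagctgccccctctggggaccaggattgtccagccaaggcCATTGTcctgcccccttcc
Pou5f1, 15.4 kb upstream, chr17:35490498-35490648: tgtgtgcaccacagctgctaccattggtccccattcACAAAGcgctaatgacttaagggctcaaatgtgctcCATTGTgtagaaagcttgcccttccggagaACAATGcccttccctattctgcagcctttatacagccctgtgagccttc
Sall4, 9.3 kb upstream, chr2:168777163-168777313: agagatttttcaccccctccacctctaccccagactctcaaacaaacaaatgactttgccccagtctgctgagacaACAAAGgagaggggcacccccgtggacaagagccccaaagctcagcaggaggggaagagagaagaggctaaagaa
Sall4, 12.3 kb upstream, chr2:168780196-168780346: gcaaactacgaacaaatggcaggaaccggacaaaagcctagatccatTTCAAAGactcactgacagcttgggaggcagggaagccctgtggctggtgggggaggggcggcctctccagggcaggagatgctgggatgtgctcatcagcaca
Lin28a, 48 bp upstream, chr4:134018842-134018991: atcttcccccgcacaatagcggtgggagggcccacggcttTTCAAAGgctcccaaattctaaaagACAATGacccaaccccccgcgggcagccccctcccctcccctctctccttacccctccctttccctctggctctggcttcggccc
Lin28a, 15.8 kb downstream, chr4:134002986-134003136: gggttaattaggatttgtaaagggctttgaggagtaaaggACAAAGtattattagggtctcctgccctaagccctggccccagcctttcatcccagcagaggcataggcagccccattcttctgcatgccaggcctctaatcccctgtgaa

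Simple words set the 40 sites apart little. A SOX word was found within 100 bp at 21 of 40 sites, 52.5%, against 45.5% of all sites. TCF words were found at 8, 20.0%, against 26.9%. The octamer ATTTGCAT, with up to 1 mismatch, was found at 9, 22.5%, against 23.8%. OCT-SOX matches also count as SOX words, and their octamer part can count as an octamer.

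In what follows a library's value at a site is the rank of its strongest peak there by fold, where rank 1 is the strongest peak of the list. Ranks were averaged as log10, with the rank held at 20000 (4.30) for weaker or absent peaks. A difference is the first condition minus the second, so it is negative where the first was stronger. Conditions were called different where all 3 libraries of one lay beyond all 3 of the other. In an exact permutation test that is p = 0.1, the smallest that 3 against 3 libraries allow, so no single comparison could pass 0.05. The same calls were made with the deposited fold in place of the rank, because a rank depends on how strong the rest of a list is. Calls were made where at least 3 of the 6 libraries had a peak among their 20000 strongest. A site with such peaks in 3 of 3 libraries of one condition and 0 of 3 of the other passed this minimum through the first condition alone and could only be called that way. Such a site is described as present against absent, without a call.

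Lists held 1628 to 991719 peaks, and 10 of the 60 held under 20000. The 5 lists under 5000 peaks were CEpiLC replicate 1 of LEF1, TCF7L1 and TCF7L2, and SOX2-OFF replicate 2 of β-catenin and TCF7L2. Absent peaks in these 5 are weak evidence, and counts without them and without naive ESC LEF1 replicate 1 are given with the alternatives. Over the members' own coding exons the 20000 strongest peaks numbered 3, 4 and 5 in replicates 1, 2 and 3.

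SOX2 reached 29 of the 40 sites in at least 2 of 3 libraries of some condition, β-catenin 24, TCF7L1 22, LEF1 9 and TCF7L2 5. SOX2 shared 18 of its sites with β-catenin and 17 with TCF7L1. The number of its sites was close in naive ESC (17), CEpiLC (16), SOX2-ON (17) and SOX2-OFF (15), but the sites were partly different ones. Of its 29 sites, 7 were occupied in 4 conditions, 4 in 3, 7 in 2 and 11 in 1.

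**Figure D1:**
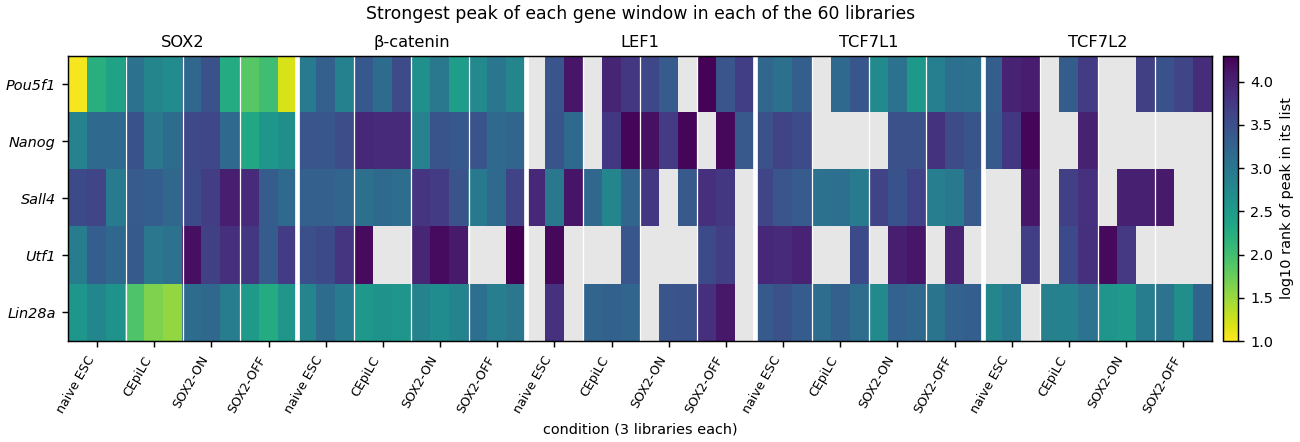
Log10 rank of the strongest peak in the window of each of the 5 genes (rows) in each of the 60 libraries (columns, by target and condition); yellow cells are the strongest peaks, dark cells weaker ones, and grey cells have no peak among the 20000 strongest. SOX2 and β-catenin columns are filled for Pou5f1 and Lin28a in all conditions, while Utf1 had no such peak in 24 of 60 lists.

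Pou5f1 lies on chr17:35506018-35510772, on the plus strand. Both of its most often occupied sites lay close upstream of the start, 2.0 kb and 0.9 kb away, in the stretch known to hold enhancers of the gene. The 2.0 kb site had a peak among the 20000 strongest in 38 of 60 libraries and the 0.9 kb site in 42. At the 2.0 kb site the summits of SOX2 and β-catenin lay at medians of 6 bp and 5 bp from the strongest summit.

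SOX2 folds at the 2.0 kb site, which holds the OCT-SOX element, were 63.3, 42.5 and 36.1 in naive ESC and 13.2, 21 and 25.7 in CEpiLC. They were 12.4, 10.2 and 17.6 in SOX2-ON and 25.7, 42.3 and 47.8 in SOX2-OFF. Naive ESC lay above CEpiLC, and SOX2-OFF lay above SOX2-ON, with no overlap in either pair. One naive ESC library had this as its rank 11 peak, and the SOX2-OFF libraries placed it at ranks 143, 126 and 133. Naive ESC had a mean log10 rank of 1.89 ± 0.74 and CEpiLC one of 2.93 ± 0.26, whereas SOX2-ON had 3.53 ± 0.18 and SOX2-OFF 2.13 ± 0.03 (SD, n = 3 each). The difference was -1.04 between naive ESC and CEpiLC and 1.40 between SOX2-ON and SOX2-OFF. Both calls held on the fold scale. The stronger SOX2 peaks at this element thus came from the high-SOX2 condition of the wild-type line and from the low-SOX2 condition of the SOX2-TetON line. Peak lists do not measure how much SOX2 was left in SOX2-OFF cells, and what the SOX2 antibody bound there was not tested.

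β-catenin at the same site had folds of 35.5, 14.3 and 24.9 in naive ESC against 6.7, 7.89 and 5.96 in CEpiLC. The ranges did not overlap on either scale, with a log10 rank difference of -0.56. In SOX2-ON the folds were 17.8, 7.35 and 16.1. SOX2-OFF replicates 1 and 3 had 17 and 12.2, and replicate 2, whose list is 1 of the 5 short ones, had no peak. TCF7L1 had folds of 25, 21.8 and 41 in naive ESC, but in CEpiLC a peak was found in replicate 2 alone, with a fold of 8.13. That pair was also called on both scales, by -0.63. LEF1 was among the 20000 strongest peaks here in 4 libraries and TCF7L2 in 2. LEF1 could be compared between naive ESC and CEpiLC and was not called (-0.18).

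At the 0.9 kb site SOX2 folds were 33.9, 44.7 and 86.2 in SOX2-OFF, at ranks 71, 103 and 16, and 16.8, 13 and 39.5 in SOX2-ON. The rank difference was 1.29 without overlap, but the folds overlapped, so this call depends on the scale. Naive ESC had 51.2, 22.2 and 23.3 and CEpiLC 15.5, 15.5 and 27.1, which overlap. β-catenin was present in 12 of 12 libraries and TCF7L1 in 11 of 12. β-catenin folds were 35.3, 13.4 and 36.5 in naive ESC, 11.9, 15.6 and 7.14 in CEpiLC, 34.8, 17 and 43 in SOX2-ON and 35.8, 8.21 and 38 in SOX2-OFF. Neither pair was called on either scale. TCF7L1 reached 70.3 in SOX2-ON replicate 3 but 7.73 in replicate 1, so the spread in that condition was wide.

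Further upstream, binding at Pou5f1 was narrower in its conditions. The site 15.4 kb upstream carried 3 SOX words and had SOX2 folds of 16.3, 18.6 and 16.8 in naive ESC. In CEpiLC the folds were 5.33, 5.92 and 4.43, with a mean log10 rank of 4.23, so not all were among the 20000 strongest. In SOX2-ON they were 5.91, 4.39 and 6.51, none of them among the 20000 strongest (4.30). One SOX2-OFF library had a peak, with 4.94, and it was among its 20000 strongest (mean log10 rank 4.28). The log10 rank difference between naive ESC and CEpiLC was -0.85 and was called on both scales, and no other protein had a peak among the 20000 strongest in 3 libraries of a condition there. The site 3.6 kb upstream had SOX2 peaks in 2 of 3 libraries of each condition, with folds of 6.28 to 14.8, and β-catenin in 3 of 3 CEpiLC libraries with folds of 3.97, 3.95 and 3.42. Their summits lay apart there, at medians of 184 bp for SOX2 and -104 bp for β-catenin from the strongest summit. The other 4 sites, from 18.0 kb upstream to 11.0 kb downstream, were each among the 20000 strongest in 2 to 4 libraries.

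**Figure D2:**
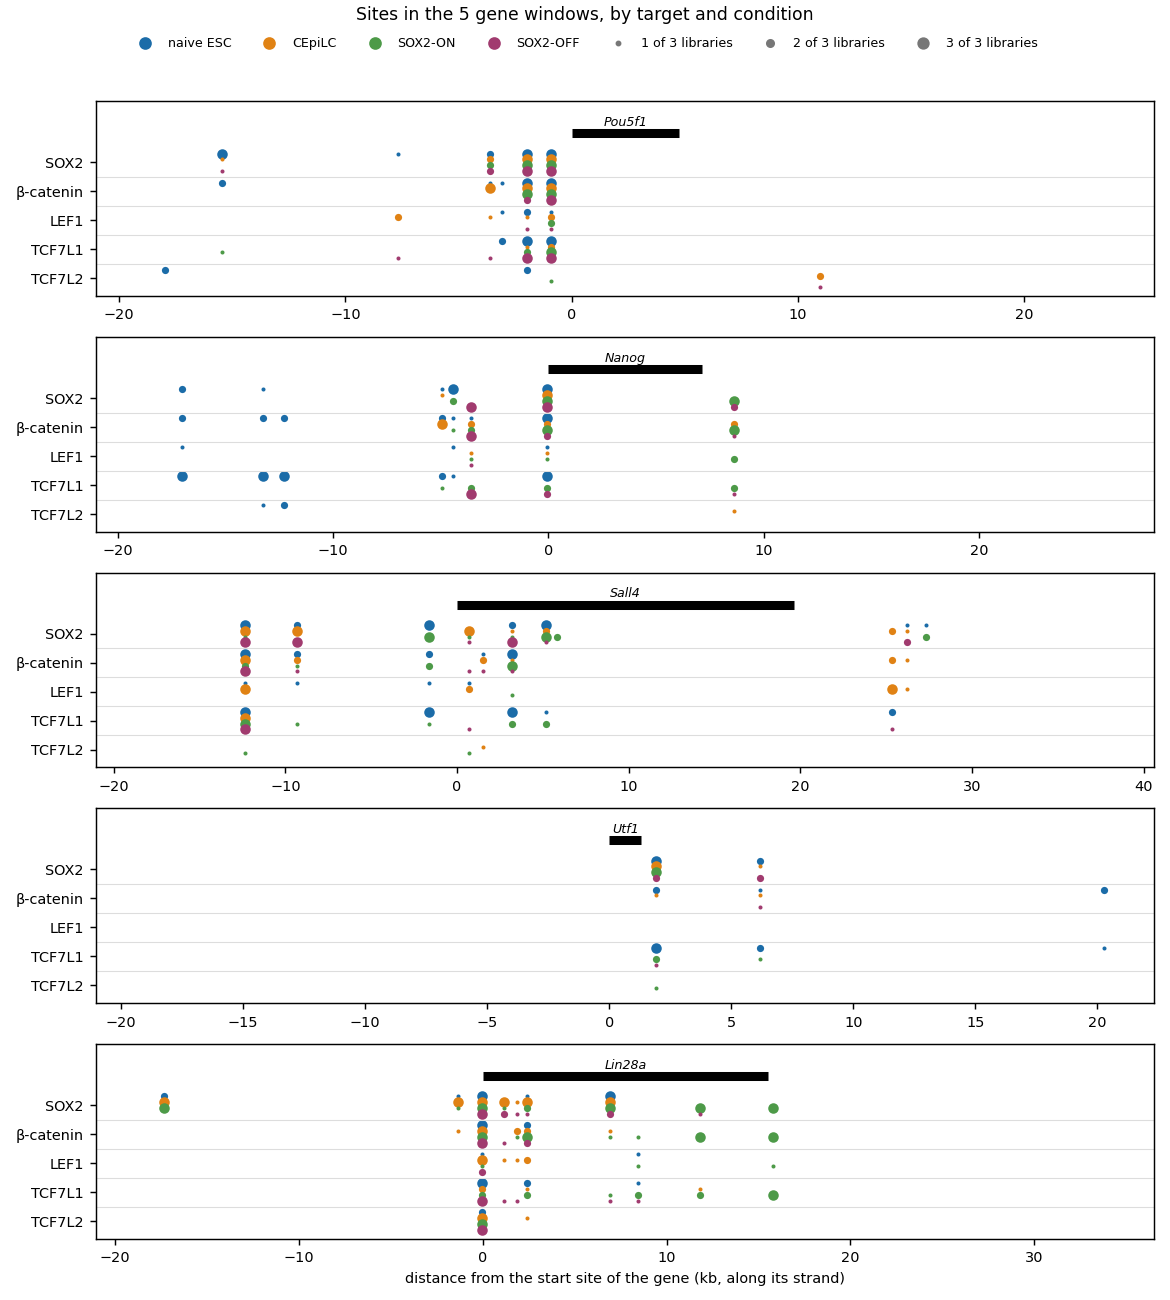
Sites in the windows of the 5 genes by distance from the annotated start (kb, positive downstream), in 1 row per protein, coloured by condition; dot size is the number of libraries of 3 with a peak among the 20000 strongest. Sites with peaks of several proteins lay both within a few kb of a start and further away, as 12.3 kb upstream of Sall4 and 15.8 kb downstream at Lin28a.

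Nanog lies on chr6:122707489-122714633, on the plus strand. Its main site was at the start of the gene, 52 bp upstream, occupied in 32 of 60 libraries and in 12 of 12 for SOX2. The folds of SOX2 were 26.6, 21 and 19.4 in naive ESC, 10.2, 17.3 and 17.1 in CEpiLC, 11.7, 7.01 and 9.1 in SOX2-ON and 20.8, 26.8 and 30.5 in SOX2-OFF. SOX2-OFF was above SOX2-ON on both scales, with mean log10 ranks of 2.52 ± 0.16 and 3.90 ± 0.29 (SD, n = 3 each) and a difference of 1.38. Naive ESC lay above CEpiLC by fold alone, since the rank difference was -0.13 and the ranks overlapped. This is the order seen at the 2.0 kb site of Pou5f1, which carries the same kind of element.

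β-catenin at the Nanog start had folds of 19.8, 12.5 and 15.3 in naive ESC and 5.34 and 5.45 in 2 CEpiLC libraries, with none in the third. The difference of -0.60 was called on both scales. SOX2-ON had 13.5, 6.92 and 13.6, and SOX2-OFF had 11.7 in replicates 1 and 3 and none in replicate 2, the short list. TCF7L1 had 23.7, 13.6 and 29.7 in naive ESC and no peak among the 20000 strongest in CEpiLC, and was thus present against absent (-0.72). The CEpiLC replicate 1 list of TCF7L1 was the shortest of the series with 1628 peaks, but replicates 2 and 3 had no such peak either.

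Other Nanog sites were occupied in one condition or in a pair of them. At 17.0 kb, 13.3 kb and 12.3 kb upstream TCF7L1 was found in 3 of 3 naive ESC libraries, with folds of 8.89 to 35.5 across the sites, and in 0 of 9 libraries of the other conditions among the 20000 strongest. These 3 sites passed the minimum through naive ESC alone, with rank differences of -0.41, -0.38 and -0.61 from CEpiLC. β-catenin accompanied it in 2 of 3 naive ESC libraries at each of the 3 sites. The site 4.4 kb upstream, chosen for mention after its values were seen, had SOX2 folds of 16.6, 20.2 and 18.1 in naive ESC and no peak among the 20000 strongest in CEpiLC. SOX2-ON had 6.92 and 9.27 there in 2 libraries, and SOX2-OFF had none.

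Other Nanog sites had SOX2 in the SOX2-TetON line alone. At 3.6 kb upstream SOX2 had folds of 6.72, 7.69 and 16.1 in SOX2-OFF and no peak among the 20000 strongest in SOX2-ON, present against absent (0.70). β-catenin there had 12.2, 6.58 and 19.4 in SOX2-OFF and 6.25 and 15.6 in 2 SOX2-ON libraries, with 1 naive ESC and 2 CEpiLC libraries also among the 20000 strongest, and TCF7L1 had 7.85, 8.68 and 10.8 in SOX2-OFF. At 8.6 kb downstream, past the end of the gene, SOX2 had 10.3, 11.4 and 20.4 in SOX2-ON and 7.44 and 9.72 in 2 SOX2-OFF libraries. β-catenin had 29, 9.63 and 8.78 there in SOX2-ON. SOX2-ON and SOX2-OFF did not overlap for SOX2 at that site by fold, but they did by rank. The site 5.0 kb upstream was mainly one of the wild-type line. It had β-catenin in 2 naive ESC libraries, with folds of 20.4 and 11.6, and in 3 CEpiLC libraries, with 4.23, 4.31 and 4.46. TCF7L1 also had peaks there among the 20000 strongest in naive ESC (mean log10 rank 3.91) and in SOX2-ON (4.20).

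Utf1 lies on chr7:139943789-139945112, on the plus strand, and had fewest sites. Its 1.9 kb downstream site, with the third OCT-SOX element, lay just past the end of the gene and was occupied in 21 of 60 libraries, 11 of them SOX2. SOX2 folds were 25.4, 18.4 and 19.3 in naive ESC and 11.4, 17.2 and 18.3 in CEpiLC. Those folds did not overlap by a narrow margin, while the mean log10 ranks were the same to 2 decimals, 3.14 ± 0.20 in both (SD, n = 3 each). SOX2-ON had 6.72, 10.6 and 10.7 and SOX2-OFF 3.89, 12.3 and 8.05, which overlap. Unlike at Pou5f1 and Nanog, SOX2-OFF was thus not above SOX2-ON at this OCT-SOX element, and whether the sites differed in this was not tested.

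β-catenin at this Utf1 site was found among the 20000 strongest in 3 libraries, 2 of them naive ESC with folds of 19 and 10.3 and 1 CEpiLC with 4.08. The third naive ESC library had a weaker peak of 5.54. TCF7L1 had 12.7, 8.77 and 16.7 in naive ESC, no such peak in CEpiLC, 5.52 and 7.6 in 2 SOX2-ON libraries and 5.62 in 1 SOX2-OFF library. For TCF7L1 naive ESC and CEpiLC were present against absent (-0.36). LEF1 had no peak there among the 20000 strongest. The sites 6.2 kb and 20.3 kb downstream were occupied in 11 and 3 libraries, the first by SOX2 in 2 naive ESC libraries with folds of 11.7 and 8.23 and in 2 SOX2-OFF libraries with 6.04 and 9.03.

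**Figure D3:**
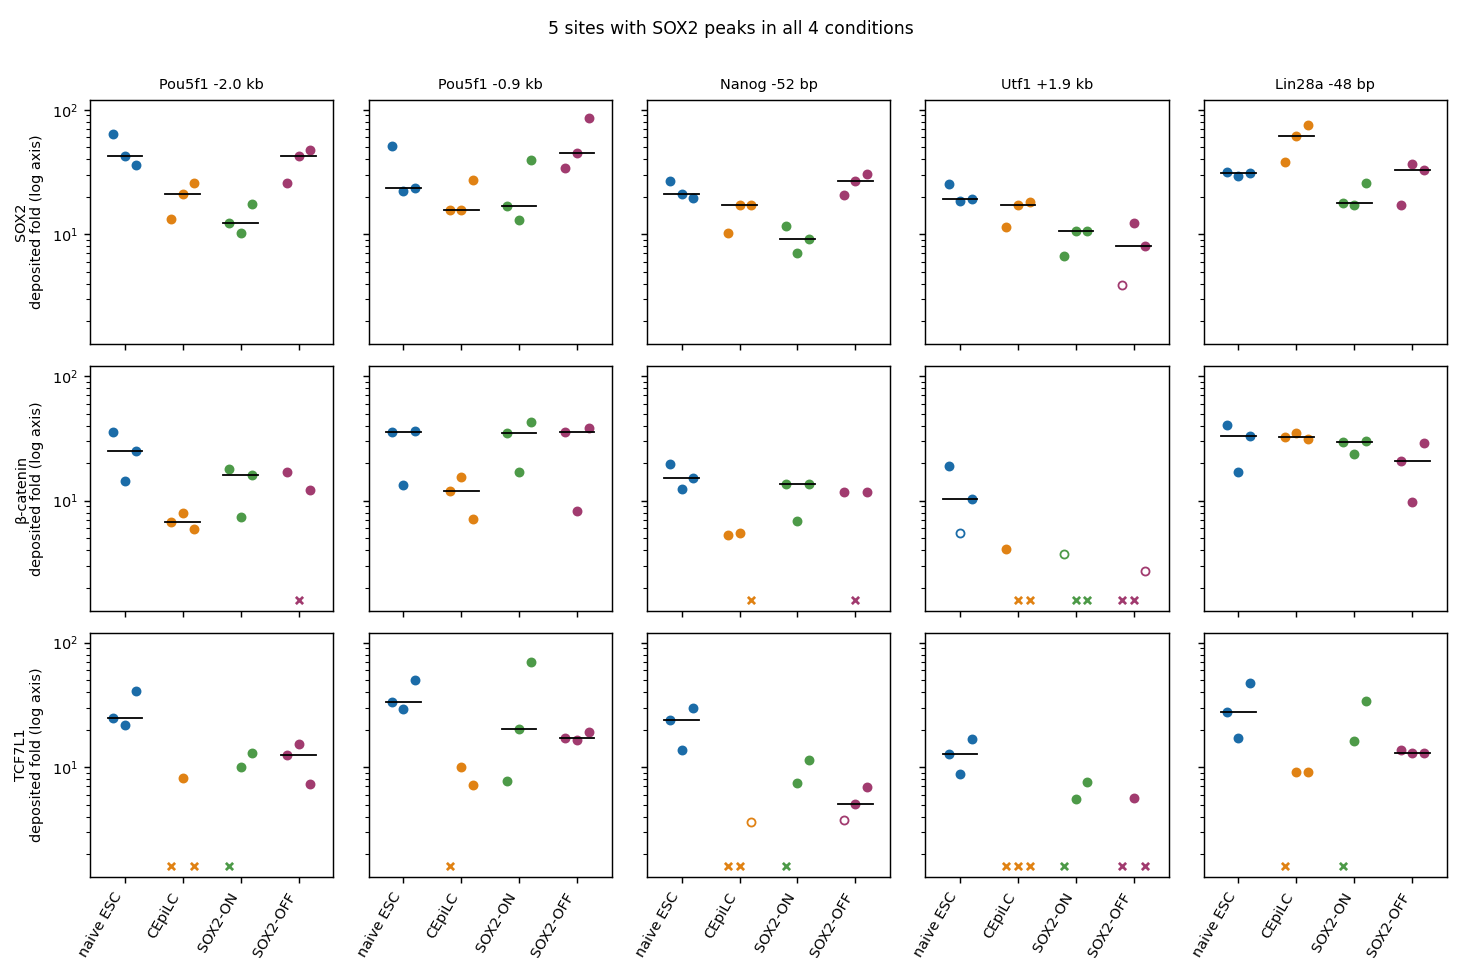
Deposited fold (log axis) of SOX2, β-catenin and TCF7L1 in each library at 5 sites shared by several conditions: Pou5f1 2.0 kb and 0.9 kb upstream, the Nanog start, Utf1 1.9 kb downstream and the Lin28a start. Filled dots are peaks among the 20000 strongest, open dots are weaker peaks, crosses mark no peak and lines are medians of 3; SOX2-OFF lies above SOX2-ON for SOX2 at the 2.0 kb Pou5f1 site and the Nanog start.

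Sall4 lies on chr2:168748332-168767943, on the minus strand. Its window held 11 sites, of which that 12.3 kb upstream was occupied in 38 of 60 libraries, with TCF7L1 in 12 of 12, β-catenin in 11 and SOX2 in 10. This is the site with a TCF word and no SOX word. β-catenin folds were 24.2, 14.2 and 23.1 in naive ESC, 18.1, 14.7 and 13.5 in CEpiLC, 5.43, 6.16 and 14.5 in SOX2-ON and 26.1, 6.61 and 9.99 in SOX2-OFF. Naive ESC and CEpiLC were called different by rank, with CEpiLC stronger by 0.15, but on the fold scale the mean was higher in naive ESC and the libraries overlapped.

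TCF7L1 at the Sall4 site 12.3 kb upstream had 19.6, 18 and 46.9 in naive ESC, 6.41, 10.9 and 11.2 in CEpiLC, 5.15, 12.2 and 10.1 in SOX2-ON and 16.9, 19.7 and 11.8 in SOX2-OFF. By rank CEpiLC was the stronger, with ranks of 1191, 1243 and 904 against 4130, 2711 and 2233. By fold naive ESC was the stronger, again without overlap, so the direction turns with the scale. The 1000 strongest TCF7L1 peaks had median folds of 59.5, 45.4 and 108 in naive ESC and 10.8, 17.3 and 15.6 in CEpiLC. LEF1 at this site had folds of 7.42, 18 and 10.7 in CEpiLC and a peak among the 20000 strongest in 1 other library, naive ESC replicate 2 with 12.2. SOX2 had 8.26, 11.6 and 15.8 in CEpiLC, 5.61, 12.3 and 9.04 in SOX2-OFF and 10.5, 6.42 and 14.3 in naive ESC. SOX2-ON had 7.06, 3.75 and 3.75 there, of which the first alone was among the 20000 strongest.

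A pair of Sall4 sites had opposite patterns of SOX2. At 1.6 kb upstream SOX2 had folds of 15.7, 13.1 and 23.6 in naive ESC and 8.62, 9.24 and 8.95 in SOX2-ON, and no peak among the 20000 strongest in CEpiLC or SOX2-OFF. Both pairs were present against absent, with rank differences of -0.92 between naive ESC and CEpiLC and -0.39 between SOX2-ON and SOX2-OFF. β-catenin was found there in 2 naive ESC and 2 SOX2-ON libraries, and TCF7L1 in 3 naive ESC libraries with 9.4, 7.22 and 20.7. At 9.3 kb upstream, where the strongest summit lay 3.5 bp from a SOX word, SOX2 had 11.6, 12.3 and 9.25 in CEpiLC and 4.97, 9.46 and 17 in SOX2-OFF. Naive ESC had 9.33 and 7.08 in 2 libraries and a weaker peak of 4.64 in the third, and SOX2-ON had none among the 20000 strongest. CEpiLC was stronger by 0.66, a rank call alone. SOX2-OFF and SOX2-ON were present against absent (0.61).

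Within the gene, the site 3.2 kb downstream of the start lay in an intron and was occupied in 21 libraries. TCF7L1 had folds of 15, 12.5 and 33.8 there in naive ESC and none among the 20000 strongest in CEpiLC, present against absent (-0.61). β-catenin had 11.5, 9.44 and 6.4 in naive ESC and 7.43, 6.83 and 9.96 in SOX2-ON. SOX2 at the site 0.7 kb downstream, in an exon of the noncoding gene Gm14261, was found in 3 of 3 CEpiLC libraries with 6.79, 9.15 and 11 and in 0 of 3 naive ESC libraries (0.63). The site 25.4 kb downstream, past the end of Sall4, had LEF1 in CEpiLC with 8.34, 7.03 and 11.6. Sites 26.2 kb and 27.3 kb downstream lay in a coding exon and an intron of the neighbouring gene Atp9a and were occupied in 6 and 3 libraries.

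Lin28a lies on chr4:134003330-134018841, on the minus strand. The site at its start, 48 bp upstream, was occupied in 52 of 60 libraries, the most of the 40 sites, and in at least 7 of 12 libraries for each of the 5 proteins. SOX2 folds were 38.1, 61.4 and 75.7 in CEpiLC, at ranks 82, 43 and 34, against 31.6, 29.2 and 30.8 in naive ESC. The difference was 0.96 and was called on both scales, with CEpiLC the stronger, the reverse of the 2.0 kb Pou5f1 site. SOX2-OFF had 17, 36.3 and 32.8 and SOX2-ON 17.7, 17.1 and 25.9. SOX2-OFF was stronger by 0.61 in rank, while the folds overlapped.

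β-catenin at the Lin28a start had folds of 40.9, 17 and 33.3 in naive ESC, 32.3, 35.2 and 31.2 in CEpiLC, 29.6, 23.5 and 30.4 in SOX2-ON and 20.7, 9.68 and 28.8 in SOX2-OFF. The rank calls were CEpiLC over naive ESC by 0.38 and SOX2-ON over SOX2-OFF with -0.22, and neither held by fold. LEF1 had 7.9, 10.2 and 11.6 in CEpiLC against 1 naive ESC library with 6.51, called on both scales by 0.91. TCF7L1 had 27.6, 17 and 47.6 in naive ESC and 13.7, 12.9 and 12.9 in SOX2-OFF, with peaks in 2 of 3 libraries in the other conditions.

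TCF7L2 was compared at the Lin28a start alone among the 40 sites. The folds were 13.5, 27 and 17.8 in CEpiLC, 20.5, 20 and 20.5 in SOX2-ON and 9.18, 17.1 and 11 in SOX2-OFF. Naive ESC had 16.4 and 15.7 in replicates 1 and 2, and 6.58 in replicate 3 at rank 27939. Neither pair was called by rank, and SOX2-ON lay above SOX2-OFF by fold.

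The 3′ part of Lin28a was bound mainly in SOX2-ON. Just past the end of the gene, 15.8 kb from the start, SOX2 had folds of 12.3, 12.4 and 12.1, β-catenin 17.7, 7.42 and 24.2 and TCF7L1 7.76, 8.6 and 29.7 in SOX2-ON. Of all 12 libraries at this site with any deposited peak, 10 had it among their 20000 strongest. SOX2-OFF had no peak among the 20000 strongest for any of the 3 proteins, so they passed the minimum through SOX2-ON alone, with rank differences of -0.71 in SOX2, -0.98 in β-catenin and -1.05 in TCF7L1. An intron site 11.8 kb from the start had SOX2 at 7.53, 6.12 and 9.13 and β-catenin at 7.06, 6.8 and 12.7 in SOX2-ON. β-catenin was present against absent there (-0.45), while SOX2-OFF replicate 3 had a SOX2 peak of 9.25 and SOX2 was not called.

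Between these, other intron sites of Lin28a were divided among conditions. At 6.9 kb SOX2 had 17.3, 16.6 and 16.4 in SOX2-ON, above SOX2-OFF by -0.67 on both scales, and 6.95 to 14.6 in naive ESC and CEpiLC together. At 2.4 kb SOX2 was found in CEpiLC with 15.5, 17 and 9.59, in 2 SOX2-ON libraries with 11 and 8.86, and in 1 library each of naive ESC (17.8) and SOX2-OFF (10.3). β-catenin there had 27.9 and 19 in 2 CEpiLC libraries, none in the third, and 16, 7.05 and 12.5 in SOX2-ON. At 1.3 kb upstream SOX2 was present in 3 of 3 CEpiLC libraries with 10.5, 12.1 and 14.6, and at 17.3 kb upstream with 9.87, 10.7 and 11.3. CEpiLC exceeded naive ESC there by 0.80 and 0.65 in rank. By fold the means were also higher in CEpiLC (-2.47 and -1.28 on the log2 scale), but the libraries overlapped. In the SOX2-TetON line, SOX2 at the site 17.3 kb upstream was present in SOX2-ON against absent in SOX2-OFF (-0.54).

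**Figure D4:**
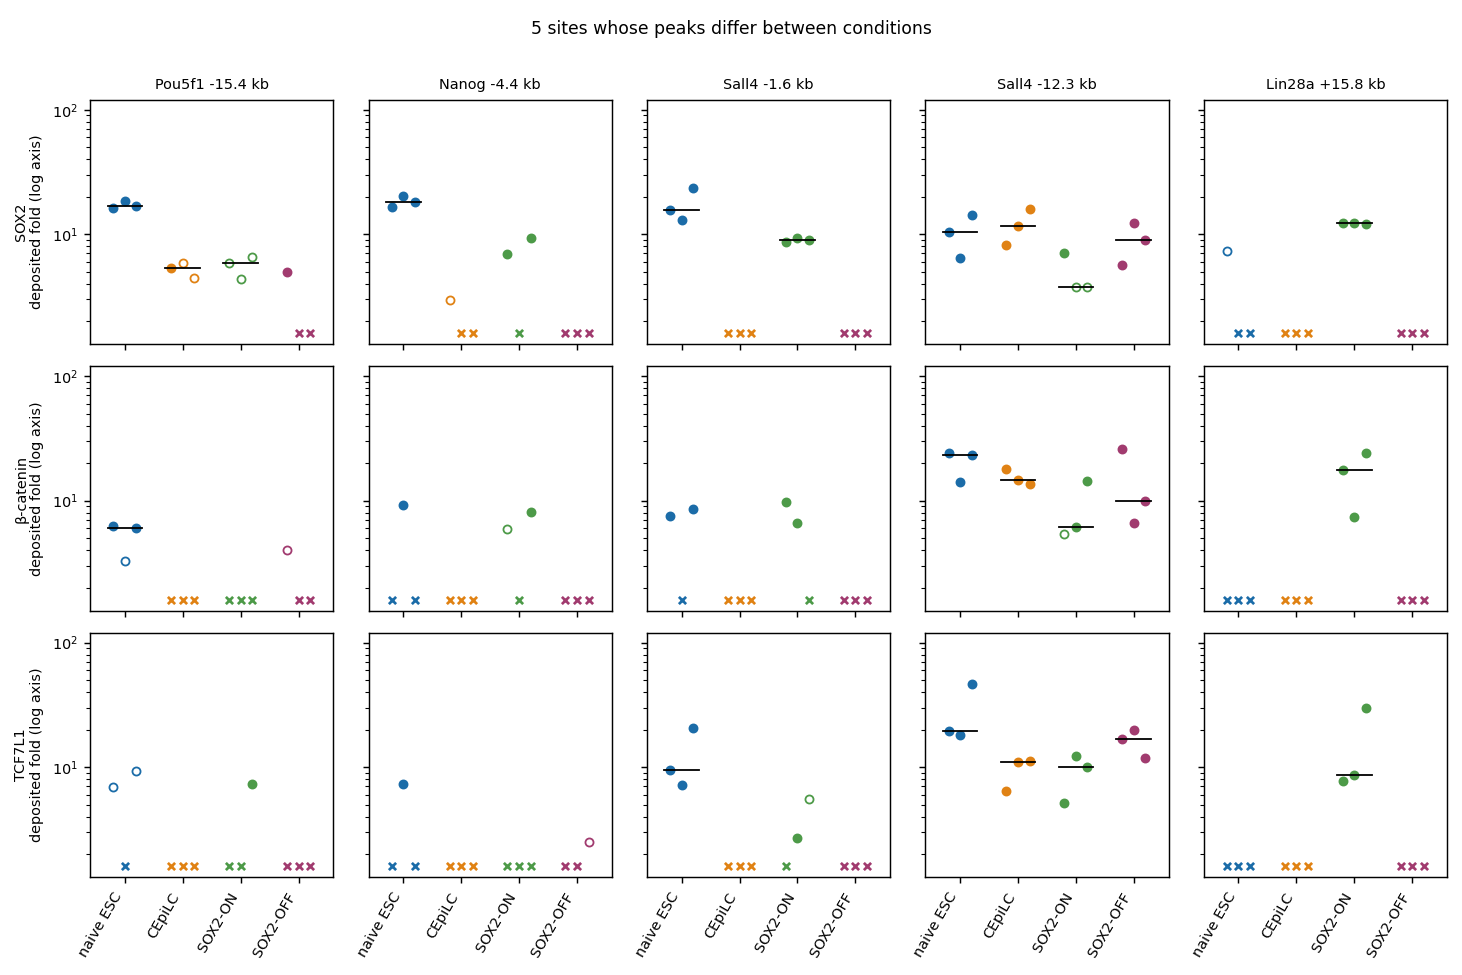
Deposited fold (log axis) in each library at 5 sites whose occupancy changed with condition: Pou5f1 15.4 kb upstream, Nanog 4.4 kb upstream, Sall4 1.6 kb and 12.3 kb upstream, and Lin28a 15.8 kb downstream. Symbols are as in the plot of shared sites; SOX2 at 15.4 kb from Pou5f1 is above 16 in naive ESC alone, and the Lin28a site has filled dots for SOX2, β-catenin and TCF7L1 in 3 of 3 SOX2-ON libraries each.

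Counts over the 40 sites put these patterns beside the genome. For SOX2, 20 sites could be tested between naive ESC and CEpiLC, with a peak in at least 3 of 6 libraries. Naive ESC was stronger at 4 (20.0%) and CEpiLC at 6 (30.0%), against 26.6% and 31.7% of 12658 sites in the genome, so neither share stood far from the background. By fold the split was 7 and 3, against 31.5% and 24.4%. Present against absent sites, which the minimum fixes, made up 2 of each by rank. Without them 2 and 4 of 16 were left (12.5% and 25.0%), against 13.9% and 21.6% of 8190 in the genome. With all deposited peaks the split turned to 10 and 6 of 36. Between SOX2-ON and SOX2-OFF 19 sites were tested. SOX2-ON was stronger at 4 (21.1%) and SOX2-OFF at 7 (36.8%), where the genome had 47.0% and 15.0% of 9907. By fold the counts were 5 and 4, with 49.7% and 9.68% in the genome. Of these, 3 SOX2-ON and 2 SOX2-OFF sites were present against absent. Without them the counts were 1 and 5 of 14 by rank (7.14% and 35.7%), against 13.9% and 16.3% of 5390 in the genome, and 2 and 2 by fold (14.3% each), against 18.9% and 6.40%. By count the members thus leaned to SOX2-OFF by rank but not by fold. Without present against absent sites, the SOX2-OFF share was above that of the genome on both scales, by fold on 2 sites. The rank count turned to 5 and 4 with peaks ranked by −log10 p-value. It was 4 and 5 with summits within 500 bp, and 7 and 7 without replicate 3. With all deposited peaks it was 5 and 10, and with equal-length lists or summits within 100 bp it was 4 and 7. Without replicate 1 it was 6 and 8, and without replicate 2 it was 7 and 10. The sites stronger in SOX2-OFF on both scales, present against absent ones aside, were 2, namely Pou5f1 2.0 kb upstream and the Nanog start. The median difference of the tested sites was 0.16 for the members and -0.27 for all sites.

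For β-catenin 13 sites were tested between naive ESC and CEpiLC, and 2 were stronger in each (15.4%), against 39.8% and 35.7% of 12599 in the genome. By fold 3 were stronger in naive ESC (23.1%) and 0 in CEpiLC, against 43.4% and 26.9%. With all deposited peaks the split was 7 and 2 of 23. None of the β-catenin sites was present against absent in this comparison, where 51.8% of the genome's were. Of 11 sites tested between SOX2-ON and SOX2-OFF, 3 were stronger in SOX2-ON (27.3%) and 0 in SOX2-OFF, against 31.9% and 15.9% of 7102. The 3 were all at Lin28a, and 2 of them were present against absent, which leaves the Lin28a start alone of 9 (11.1%), against 14.5% and 17.2% of 5428. The fold scale also gave 3 and 0, against 33.0% and 4.82%, with the Sall4 site 3.2 kb downstream in place of the Lin28a start.

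TCF7L1 leaned to naive ESC at the members, as it did in the genome. Naive ESC was stronger at 8 of 12 tested sites (66.7%) and CEpiLC at 1 (8.33%), where the genome had 78.3% and 3.84% of 11281. By fold the count was 11 of 12 and 0, against 86.2% and 1.02%. The 8 were 4 sites at Nanog, 2 at Sall4, 1 at Pou5f1 and 1 at Utf1, and 7 of them were present against absent. Without those, 1 of 5 sites went each way by rank, against 23.5% and 10.9% of 3078, and by fold 4 went to naive ESC and 0 to CEpiLC, against 52.6% and 0.552%. In lists shortened to equal length the naive ESC calls of LEF1, TCF7L1 and TCF7L2 together went from 8 to 0, and the CEpiLC calls numbered 3 in both. Between SOX2-ON and SOX2-OFF 1 of 10 sites went each way, against 9.93% and 16.9% of 6756, and the SOX2-ON one was present against absent. Same-numbered libraries varied together in this comparison (r of 0.26, 0.32 and 0.21), and the 3 differences between same-numbered libraries had one sign at 2 sites for SOX2-ON and 3 for SOX2-OFF, against 12.9% and 24.1%.

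LEF1 was stronger in CEpiLC at 2 of 6 tested sites (33.3%), at Lin28a and, present against absent, at Sall4, and in naive ESC at 0, against 60.4% and 0.591% of 4060. In the other comparison 0 of 2 LEF1 sites were called, against 33.0% and 19.7% of 1940. For TCF7L2 the 1 tested site gave 0 calls by rank in either comparison. The genome shares were 13.1% stronger in naive ESC and 29.9% in CEpiLC of 3641, and 12.8% in SOX2-ON and 15.3% in SOX2-OFF of 2760. With so few sites these shares say little of LEF1 and TCF7L2 at these genes.

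**Figure D5:**
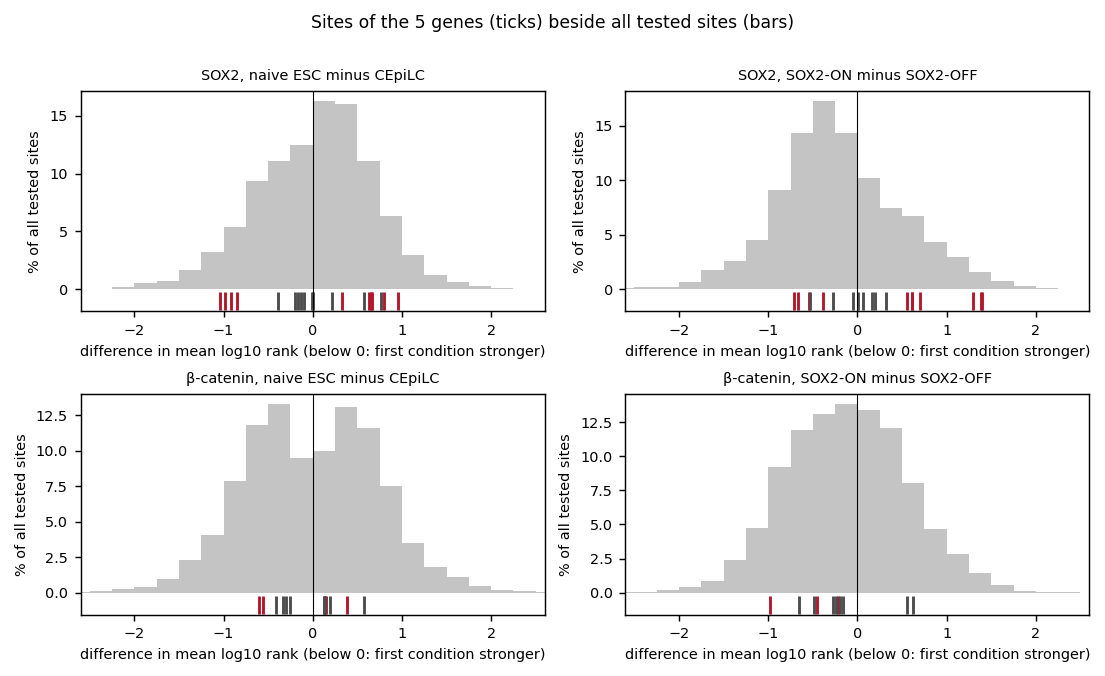
Histograms of the log10 rank difference over all tested sites of the genome for SOX2 and β-catenin in both comparisons, with member sites as ticks, red where the 3 and 3 libraries did not overlap, present against absent sites included. Values below 0 are stronger in naive ESC or SOX2-ON; for SOX2 the members' median was 0.16 between SOX2-ON and SOX2-OFF and that of all sites -0.27.

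Whether binding followed the SOX2 level in both lines was tested over all 12 libraries of a protein. In the wild-type line high and low SOX2 also differed in medium and differentiation, and in the SOX2-TetON line in doxycycline. The level cannot be told apart from these, and high and low SOX2 below name the groups. Labels of high and low SOX2 were exchanged within each line in an exact permutation test, which has 400 assignments and a smallest p of 0.005, and p-values were adjusted over all tested sites of the protein. Of 34 tested pairs of site and protein, 4 passed an adjusted p of 0.05. With labels exchanged only between same-numbered libraries none of the 4 passed (exact permutation, adjusted p = 0.119 for the 3 of SOX2 and 0.167 for that of TCF7L1). That exact permutation test has 64 assignments and a smallest p of 0.03125, and all 4 pairs stood at it. Adjustment brings this value below 0.05 only if most tested sites reach it. Not passing under this exchange thus says little about the 4 pairs. In the genome 24.9% of SOX2 sites, 40.9% of β-catenin sites, 21.1% of LEF1 sites, 12.2% of TCF7L1 sites and 0% of 2445 TCF7L2 sites passed. Before adjustment 23.4% of TCF7L2 sites had exact p below 0.05.

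SOX2 at Sall4 1.6 kb upstream was the pair stronger with high SOX2 (difference -0.66), present in 6 of 6 libraries against 0 of 6. It reached the minimum of 6 of 12 libraries through high SOX2 alone, so its passing was fixed and no p is given for it. The same, in either direction, held for 480 of the 7153 SOX2 sites tested in the genome. SOX2 at Sall4 9.3 kb upstream was stronger with low SOX2 (0.63, exact p = 0.005, adjusted p = 0.0237), with an adjusted p of 0.0438 by fold in the exact permutation test. Leaving out any one SOX2-ON library raised its exact permutation adjusted p to between 0.0603 and 0.0624.

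SOX2 at the Lin28a start was also stronger with low SOX2 (0.79, exact p = 0.005, adjusted p = 0.0237), but by fold the exact permutation test gave an adjusted p of 0.0987. TCF7L1 at Sall4 12.3 kb upstream was stronger with low SOX2 by rank (0.57, exact p = 0.005, adjusted p = 0.0409). By fold that site leaned to high SOX2 instead (0.29 on the log2 scale, exact permutation adjusted p = 0.679). At the OCT-SOX sites no pair passed. SOX2 there had differences of 0.18 at Pou5f1 (exact permutation, adjusted p = 0.757), 0.63 at Nanog (adjusted p = 0.155 in the exact test) and 0.03 at Utf1 (adjusted p = 0.926 in the exact test). No β-catenin pair passed (0 of 10), and 4 had exact p below 0.05 before adjustment, where 49.1% of the genome's sites had.

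The strongest peak in the whole window of each gene was compared in the same way. Of 24 pairs of gene and protein tested between naive ESC and CEpiLC, 10 were called, 4 stronger in naive ESC and 6 in CEpiLC. Among all genes, in either direction, SOX2 was called at 41.3%, β-catenin at 54.9%, LEF1 at 24.6%, TCF7L1 at 39.0% and TCF7L2 at 21.5%. Pou5f1 SOX2, Nanog β-catenin, Nanog TCF7L1 and Utf1 β-catenin were stronger in naive ESC. Sall4 and Lin28a supplied the 6 stronger in CEpiLC, by rank. Nanog TCF7L1 was present against absent. On the fold scale 12 were called and the split turned to 10 and 2, but all genes also leaned to naive ESC by fold, with 28.1% against 11.2% for SOX2, 39.3% against 14.1% for β-catenin and 58.9% against 1.05% for TCF7L1.

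In the SOX2-TetON line 6 of 22 gene and protein pairs were called, where SOX2 was called at 32.1% of all genes, β-catenin at 26.7%, LEF1 at 14.0%, TCF7L1 at 19.2% and TCF7L2 at 15.7%. SOX2 was stronger in SOX2-OFF at Pou5f1 (1.29), Nanog (0.93) and Lin28a (0.61). TCF7L1 was stronger in SOX2-OFF at Sall4 (0.50). β-catenin was stronger in SOX2-ON at Utf1 (-0.23) and Lin28a (-0.22). At each described Utf1 site its mean log10 rank in SOX2-ON was 4.30, the value held for weaker or absent peaks. The Utf1 call thus came from peaks outside the described sites, at ranks 8787, 15884 and 11672 in SOX2-ON. SOX2-OFF had no peak within the rank limit except in replicate 3 (19415), and its replicate 2 list held only 3423 peaks. By fold 3 pairs were called, 2 for SOX2-ON and 1 for SOX2-OFF. All genes had 20.9% and 8.23% for SOX2 by fold and 16.6% and 1.47% for β-catenin. With peaks ranked by −log10 p-value the split by rank went from 2 and 4 to 2 and 2.

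Pou5f1 and Nanog were the members most alike over the 60 libraries, with a Pearson r of 0.77 between their log10 ranks. Their r with Utf1 was 0.46 and 0.39, and with Lin28a 0.45 and 0.34. Sall4 had r of 0.18 to 0.29 with the other 4. Libraries share list length and protein, so these values are a description of the libraries. Among all protein-coding genes, Slc38a3 (0.80) and Pkn3 (0.79) were most like Lin28a, Afap1 and Rab27a (0.76 each) most like Utf1, and Zfp609 and Map4k5 (0.68 each) most like Sall4. Mup6 and Mup4 (0.79 each) were most like Pou5f1, and Mup4 also led for Nanog (0.77). These belong to a family of near-identical copies, so which copy the peaks come from is uncertain.

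A list of 25 other pluripotency genes was compared by the same window. For SOX2, 25 could be tested between naive ESC and CEpiLC, of which 12 were stronger in naive ESC and 2 in CEpiLC, with a median difference of -0.51 against 0.06 for all genes. Zfp42, a marker of the naive state, had no SOX2 peak among the 20000 strongest in CEpiLC and a mean log10 rank of 2.73 in naive ESC. Mybl2, a cell cycle factor, differed by -1.15, and the germ cell and stem cell genes Dppa2 and Dppa4, which share a peak in their windows, by -1.02. Of the 5 members 1 was stronger in each condition. For β-catenin 14 of 23 listed genes were stronger in naive ESC and 5 in CEpiLC (median -0.62 against 0.03). Zfp281 differed by -1.42, Dppa5a by -1.22, and the neighbours Dppa3 and Gdf3, again with a shared peak, by -1.09. For TCF7L1 it was 16 of 24 and 0 (-0.61 against -0.15), for LEF1 0 of 19 and 1, and for TCF7L2 2 of 17 and 1. Of all tested genes, naive ESC and CEpiLC were the stronger at 2186 and 3095 of 12799 for SOX2. They were so at 3028 and 3130 of 11219 for β-catenin and at 3564 and 493 of 10408 for TCF7L1. LEF1 had 1076 and 1542 of 10656, and TCF7L2 1143 and 1487 of 12209. By fold the naive ESC side of the list was larger, with 17 and 1 genes for SOX2, 18 and 0 for β-catenin and 23 and 0 for TCF7L1, and the named genes were called the same way. The fold scale itself favoured naive ESC, since the median over all genes, on the log2 scale, was 0.17 for SOX2, 0.55 for β-catenin and 2.30 for TCF7L1. The list's medians were 1.17, 2.23 and 3.71. By fold, 28.1% and 11.2% of all genes were called for naive ESC and CEpiLC with SOX2. The shares were 39.3% and 14.1% with β-catenin and 58.9% and 1.05% with TCF7L1. Genes present against absent, all towards naive ESC, made up 4 of the SOX2 calls (Zfp42, Dppa2, Dppa4 and Nr0b1), 4 of the β-catenin calls (Zfp281, Zfp42, Dppa2 and Dppa4) and 3 of the TCF7L1 calls.

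In the SOX2-TetON line the pluripotency list was divided. For SOX2, 4 of 22 genes were stronger in SOX2-ON and 6 in SOX2-OFF, with a median of 0.20 against 0.06 for all genes and 0.61 for the members. Rif1, a telomere and replication timing factor, was stronger in SOX2-OFF by 1.36 and Tdgf1, a Nodal co-receptor, by 0.93. Mybl2 (-0.92) and Zfp281 (-0.73) were stronger in SOX2-ON, Zfp281 as present against absent. β-catenin was stronger in SOX2-ON at 2 of 21, Zfp281 (-1.16) and Tet2 (-0.84), and in SOX2-OFF at 0. LEF1 gave 3 and 1 of 17, TCF7L1 2 and 4 of 23, and TCF7L2 1 and 2 of 15. Of all tested genes, SOX2-ON and SOX2-OFF were the stronger at 1744 and 1989 of 11615 for SOX2. For β-catenin it was 1646 and 875 of 9450, and for LEF1 730 and 824 of 11064. TCF7L1 had 848 and 1234 of 10831, and TCF7L2 1180 and 617 of 11435. Both shares of LEF1, TCF7L1 and TCF7L2 in the list rest on few genes. Of the SOX2-ON calls among these, 2 of LEF1 (Gdf3 and Dppa3), 1 of TCF7L1 (Zfp42) and 1 of TCF7L2 (Zfp281) were present against absent. By fold SOX2 gave 4 for SOX2-ON and 0 for SOX2-OFF, and β-catenin gave 6 and 0. All genes had 20.9% and 8.23% for SOX2 and 16.6% and 1.47% for β-catenin. The SOX2 calls at Rif1 and Tdgf1 were thus lost, though both still leaned to SOX2-OFF (-1.31 and -0.75 on the log2 scale). The median of all genes by fold was 0.18 for SOX2 and 0.86 for β-catenin.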

How the data were processed

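ChIP-seq of 5 proteins in 4 conditions gave 60 peak lists, 3 biological replicates from separate experiments per group, and 4 inputs had no list. Cells were fixed with DSG and formaldehyde, and libraries were read as 76 bp single ends. According to the methods, reads were processed with nf-core/chipseq, trimmed with Trim Galore and aligned with BWA to mm10, and MACS (MACS2 in the submitters' processing notes) called peaks per library at its default threshold, without pooling. The pairing with inputs is not given in the sources used here. The fold in the deposited lists is a ratio over local background at the summit, as MACS gave it. The −log10 p-value, also deposited, was used in an alternative ranking. Read depth is unknown, so no counting interval could be given, and strong differences in list length limit precision.

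Here each list was cut to its 20000 strongest peaks by fold. Anchors at least 500 bp apart were chosen genome-wide from the strongest down, and values were log10 ranks within 250 bp. Gene models were GENCODE release M21 (GRCm38). Sites were tested with a peak in 3 of 6 libraries, or 6 of 12 for high against low SOX2. Exact permutation tests were two-sided, with Benjamini-Hochberg adjustment, in Python 3.11.15 with NumPy 2.4.6, pandas 2.3.3 and numba 0.67.0, and were tested on simulated data. The fold scale was log2 of the fold plus 1, with 0 where no peak was among the 20000 strongest. Up to 4 sites per gene, those with most libraries, were to be given in full, along with sites that differed, and at most 4 genes per list, target and comparison were named, those with the largest differences among the ones called. The members and lists were chosen with earlier results of these data known. Deviations of same-numbered libraries from their group means correlated at over 0.1 for each number in 1 of 10 comparisons, TCF7L1 between SOX2-ON and SOX2-OFF (r of 0.26, 0.32 and 0.21), where the numbers were taken to pair. The authors' differential tests were not used.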

Additional observations from a re-analysis of the deposited data

How the results depend on the processing

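The read depth behind each list is unknown, and short lists limit what an absent peak means. With all deposited peaks in place of the 20000 strongest, the member sites that differed between naive ESC and CEpiLC went from 10 (4 stronger in naive ESC and 6 in CEpiLC) to 16 (10 and 6) for SOX2 and from 4 (2 and 2) to 9 (7 and 2) for β-catenin. With lists cut to equal length, those of LEF1, TCF7L1 or TCF7L2 went from 11 (8 and 3) to 3 (0 and 3) in that comparison and from 2 to 0 between SOX2-ON and SOX2-OFF, and those of β-catenin between SOX2-ON and SOX2-OFF went from 3 to 1. Fewer peaks are tested in equal lists by construction. Ranking by −log10 p-value gave 5 for β-catenin between SOX2-ON and SOX2-OFF (4 and 1). Without the sites whose call the minimum number of libraries fixes, an alternative chosen after seeing the data, the counts were 6 for SOX2 and 3 for LEF1, TCF7L1 or TCF7L2 between naive ESC and CEpiLC, while between SOX2-ON and SOX2-OFF they were 6 with SOX2, 1 with β-catenin and 1 with the TCF and LEF proteins. On the fold scale, chosen after seeing the data, the gene and protein pairs between SOX2-ON and SOX2-OFF went from 6 to 3, and 2 site results reversed: β-catenin at Sall4 12.3 kb upstream between naive ESC and CEpiLC (0.36 on the log2 scale, in favour of naive ESC) and TCF7L1 there for high against low SOX2 (0.29). The cause was not tested. Without a filter on libraries with a peak, 0 of the 4 pairs passed for high against low SOX2, because many more sites enter the adjustment. With the replicate block 0 passed an adjusted p, where the exact permutation test has 64 assignments and a smallest p of 0.03125, and 7 pairs had an unadjusted p below 0.05. A looser replicate block, also chosen after seeing the data, counted sites whose 3 same-number differences had one sign, and between SOX2-ON and SOX2-OFF it gave 7 for β-catenin, 6 for LEF1, TCF7L1 or TCF7L2 and 10 gene and protein pairs. The other counts stayed within 1.5 times under it.

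Leaving out each replicate number in turn loosens the call, since 2 against 2 libraries in an exact test cannot go below p = 0.333. Between naive ESC and CEpiLC the counts ranged from 11 to 19 for SOX2, from 8 to 14 for β-catenin, from 14 to 19 for LEF1, TCF7L1 or TCF7L2 and from 13 to 15 for gene and protein pairs. Between SOX2-ON and SOX2-OFF they ranged from 14 to 17, 5 to 9, 5 to 8 and 10 to 12. For high against low SOX2 this was not run, because the smallest p would be 0.05556 in the exact test. With single libraries left out, chosen after seeing the data, the exact permutation adjusted p of TCF7L1 at Sall4 12.3 kb upstream ranged from 0.0296 to 0.0794, and it was 0.0699 with all deposited peaks and 0.0709 with ranking by −log10 p-value. Without the 6 doubted libraries, also chosen after seeing the data, the 8 counts of sites and of gene and protein pairs stayed within 1.5 times, with 14 for LEF1, TCF7L1 or TCF7L2 and 12 gene pairs between naive ESC and CEpiLC.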

Other observations

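Genes of the caudal epiblast and early mesoderm, a list of 15, differed in the other direction from the pluripotency list between naive ESC and CEpiLC. SOX2 was stronger in CEpiLC at 9 of 15 and in naive ESC at 1, with a median log10 rank difference of 0.65 against 0.06 for all genes. Hoxb1, an anterior Hox gene with early caudal expression, differed by 2.67, Nkx1-2, a homeobox gene of the caudal epiblast, by 2.30, and Fgf8, a growth factor of the caudal end, by 1.18. The exception was Msgn1, a factor of presomitic mesoderm (-1.51). β-catenin was stronger in CEpiLC at 10 and in naive ESC at 2, with a median of 1.00 against 0.03, and Fgf8 (1.71), Wnt3a (1.61), Tbx6 (1.53) and Evx1 (1.42) differed most. LEF1 was stronger in CEpiLC at 7 of 15 and in naive ESC at 0, TCF7L1 at 7 and 4 of 15, and TCF7L2 at 6 and 1 of 14. Of all tested genes, CEpiLC and naive ESC were the stronger at 3095 and 2186 of 12799 for SOX2. For β-catenin it was 3130 and 3028 of 11219, and for LEF1 1542 and 1076 of 10656. TCF7L1 had 493 and 3564 of 10408, and TCF7L2 1487 and 1143 of 12209. By fold CEpiLC was the stronger at 7 genes and naive ESC at 2, both with SOX2 and with β-catenin. LEF1 gave 9 and 0, TCF7L2 gave 7 and 0, and TCF7L1 turned to 1 and 6. All genes by fold had 11.2% for CEpiLC and 28.1% for naive ESC with SOX2, and 14.1% and 39.3% with β-catenin. The shares were 8.16% and 15.9% with LEF1, 7.58% and 3.89% with TCF7L2 and 1.05% and 58.9% with TCF7L1. The named genes were called the same way by fold. Some genes had peaks among the 20000 strongest in 3 of 3 CEpiLC and 0 of 3 naive ESC libraries, so the minimum of 3 of 6 fixed their calls. They were Fgf8 and Wnt3a for β-catenin, Tbx6 for SOX2 and Wnt3a for TCF7L1.

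Between SOX2-ON and SOX2-OFF, SOX2 at this list was stronger in SOX2-OFF at 4 of 15 and in SOX2-ON at 0: Hoxb1 (1.66), Nkx1-2 (1.63), Evx1 (0.64) and Axin2 (0.25), a WNT target gene. β-catenin was stronger in SOX2-ON at the homeobox genes Cdx4 (-1.46) and Cdx2 (-1.41), and in SOX2-OFF at Nkx1-2 (0.40). LEF1 was stronger in each at 2 of 13, TCF7L1 in SOX2-ON at 3 and in SOX2-OFF at 5 of 14, and TCF7L2 in each at 2 of 11. Of all tested genes, SOX2-ON and SOX2-OFF were the stronger at 1744 and 1989 of 11615 for SOX2. For β-catenin it was 1646 and 875 of 9450, and for LEF1 730 and 824 of 11064. TCF7L1 had 848 and 1234 of 10831, and TCF7L2 1180 and 617 of 11435. By fold SOX2 gave 2 for SOX2-OFF, Hoxb1 and Nkx1-2, and 3 for SOX2-ON, against 8.23% and 20.9% of all genes. Evx1 and Axin2 were then not called. On the log2 scale Evx1 still leaned to SOX2-OFF (-2.41), and Axin2 leaned the other way (0.13). β-catenin kept Cdx4 and Cdx2 but not Nkx1-2.

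Whether the comparison of naive ESC with CEpiLC differed from that of SOX2-ON with SOX2-OFF was tested for the 25 pairs of member gene and protein, by exact permutation of the line within each SOX2 level. Of these, 5 had exact p below 0.05 and 0 passed adjustment. Nanog with SOX2 had the smallest exact p of 0.005, with an adjusted p of 0.125. The 400 assignments allow no smaller exact p, so over 25 pairs a single pair at that limit could not pass. That 0 passed thus says little. The exchange also assumes that the lines do not differ at either level.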
